A study of Mus musculus with 16 samples.

Results

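The genes described here are the mouse Cyp2b cytochrome P450 paralogues Cyp2b9, Cyp2b10 and Cyp2b13, the xenobiotic receptor genes Nr1i3 and Nr1i2, and Por. They were followed in 8 knockout livers (LRH-1 hep-/-) and 8 control livers (LRH-1 hep +/+). Nr5a2 encodes LRH-1, a nuclear receptor, and hep stands in the genotype for hepatocytes, in which the gene was to be deleted; the labels give neither the driver nor the deleted exons. All the mice were 17 to 19 weeks old, ate freely and were killed at 7 am, and each liver was read on its own Affymetrix whole-transcript array. A member was measured if the array's annotation had a probe set naming that gene alone. This held for 5 of the 6 genes, each with 1 probe set, among 19237 genes in all, and Por, which has no such probe set, was not analysed here.

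Nr1i3 encodes CAR, the constitutive androstane receptor, and Nr1i2 encodes PXR, the pregnane X receptor. Both pair with RXR and switch on genes of drug and steroid clearance when foreign chemicals, bile acids or steroids reach the hepatocyte. Cyp2b10 is the classical CAR-induced P450 of mouse liver. Cyp2b9 and Cyp2b13 are close paralogues of it that are typically expressed in female rather than male mouse liver. Por, the P450 reductase, hands these enzymes the electrons they need.

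The 3 paralogues lie next to each other on chromosome 7, in the order Cyp2b10, Cyp2b13, Cyp2b9 among protein-coding genes of GRCm38.p6. Their promoter windows, from RefSeq with 250 bases before and 50 bases after the start, are printed because they show how alike Cyp2b9 and Cyp2b13 are beside the unequal changes below. The windows are chr7:26173159-26173458 (Cyp2b9), chr7:26061245-26061544 (Cyp2b13) and chr7:25897408-25897707 (Cyp2b10), all on the + strand of GRCm38.p6 and written 5′ to 3′. Single capitals mark the bases that differ between Cyp2b9 and Cyp2b13, and the run of capitals marks AGGTCA, a half-site that nuclear receptors can bind.
Cyp2b9: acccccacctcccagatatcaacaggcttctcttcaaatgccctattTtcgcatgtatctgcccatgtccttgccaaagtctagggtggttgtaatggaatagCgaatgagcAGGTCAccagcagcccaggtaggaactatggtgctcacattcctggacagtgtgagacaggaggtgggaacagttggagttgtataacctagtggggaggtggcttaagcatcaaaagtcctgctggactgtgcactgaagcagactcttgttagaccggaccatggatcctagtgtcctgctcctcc
Cyp2b13: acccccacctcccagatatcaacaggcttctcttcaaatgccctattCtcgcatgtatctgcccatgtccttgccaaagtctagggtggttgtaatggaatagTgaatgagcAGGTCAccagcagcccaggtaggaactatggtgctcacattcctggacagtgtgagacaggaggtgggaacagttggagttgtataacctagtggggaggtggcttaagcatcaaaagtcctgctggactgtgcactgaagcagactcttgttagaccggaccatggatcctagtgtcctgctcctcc
Cyp2b10: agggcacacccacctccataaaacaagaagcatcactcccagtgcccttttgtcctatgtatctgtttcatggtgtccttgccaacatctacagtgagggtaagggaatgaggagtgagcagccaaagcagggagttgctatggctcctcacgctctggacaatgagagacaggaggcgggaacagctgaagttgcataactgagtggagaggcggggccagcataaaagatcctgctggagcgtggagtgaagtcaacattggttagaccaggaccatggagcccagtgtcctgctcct

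The windows of Cyp2b9 and Cyp2b13 were identical at 298 of 300 bases, or 99.3%. The 2 differences were C48T and T104C, counted from 1 at the 5′ end of the window with the Cyp2b13 base first. The Cyp2b10 window matched the Cyp2b9 window at 223 of 289 aligned bases, or 77.2%. AGGTCA, searched on both strands, began 138 bases before the start in Cyp2b9 and in Cyp2b13, and 16.3% of all 32851 promoter windows held it. It was not in the windows of Cyp2b10, Nr1i3, Nr1i2 or Por.

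None of the 6 windows held the LRH-1 letters CAAGGTCA or CAAGGCCA (in 1.56% and 2.40% of all windows) or the HNF4 letters CAAAGTCCA (0.475%). The same was true of TTCNNNGAA, a STAT5 motif (8.30%), of TATAAA (13.6%), and of 2 AGGTCA copies in the same direction with 4 bases (0.0152%) or 3 bases (0.00609%) between them. All motifs were searched on both strands, and the direct repeats contain the AGGTCA half-site. These windows leave out more distant elements, among them the phenobarbital-responsive enhancer through which CAR acts on Cyp2b10.

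Values below are log2 intensities, and a change is knockout minus control. Calls were made with limma at 0.05, after Benjamini-Hochberg adjustment over all 19237 genes. By that rule 8.7% of genes were called, 5.49% higher and 3.2% lower in knockout livers. The groups did not overlap in 2.89% of genes, 1.69% in the higher direction and 1.2% in the lower. Before adjustment, the limma p was 0.0441 at rank 3251 of the 19237 genes and 0.0503 at rank 3405. An unadjusted p under 0.05 was therefore commoner among all genes than a call. Nr5a2, the deleted gene, was at 7.25, 7.77 and 8.25 (lowest, median and highest) in knockout livers, against 8.45, 8.70 and 8.78 in control livers. Every knockout liver lay below every control liver, with a change of -0.88 ± 0.12 (SE). The labels call the livers biological replicates.

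Some arrays stood apart. Knockout 8 lay apart from the other knockouts in 6.90% of genes by Dixon's gap test, against 0.156% to 3.70% for the other 7. Control 1 lay apart in 3.57% of genes, against 0.234% to 1.37% for the other controls. Adipocyte markers averaged 6.21 in knockout 1, 6.42 in control 5 and 5.62 in control 8, against 4.78 or less in the other arrays. The summed intensity of 5 hepatocyte markers was 30397 to 32896 in knockout livers and 30646 to 34231 in control livers, with 1 of the 5 at an unadjusted p under 0.05 and 0 called in limma. Of 5 stellate markers 2 were higher (Dcn and Reln) and 1 lower (Lrat), with summed intensities of 2166 to 3185 in knockout livers and 1865 to 2746 in control livers. Of 4 cholangiocyte markers 1 was higher (Epcam), with sums of 246 to 322 in knockout livers and 214 to 271 in control livers, and the part of these cells in the results was not tested. In whole-liver RNA, fewer cells of a type and less RNA per cell cannot be told apart.

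Cyp2b9 was the member that differed most between the genotypes. It stood at 9.11, 10.71 and 11.08 (lowest, median and highest) in the 8 knockout livers, against 3.75, 4.53 and 5.01 in the 8 control livers. Every knockout liver lay above every control liver. On the linear scale the geometric mean intensity was 1349 in knockout livers and 21.9 in control livers. The change was 5.94 ± 0.28 (SE), a 61.5-fold difference with a 95% confidence interval of 41.1 to 92.0 (limma adjusted p = 8.94e-12), the highest of all 19237 genes. The size of the fold depends on the dim control level: with an intensity of 16 added before the log2 the change was 5.15 (limma adjusted p = 1.01e-09), below the interval of 5.36 to 6.52 for the change as reported.

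The rise in Cyp2b9 was not even across the knockout livers. Knockout 7 (9.11) and knockout 8 (9.21) were below the other 6, which lay between 10.53 and 11.08. In linear intensity these 2 livers read 553 and 590, and the other 6 read 1481 to 2164. Without both, the change was 6.36 (limma adjusted p = 1.49e-13). Nr5a2 in these livers was 7.69 and 8.25, so knockout 8 had the highest Nr5a2 of the knockouts and knockout 7 lay in the middle.

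Cyp2b10, the classical CAR target, also rose, by less. It stood at 6.68, 8.07 and 8.52 in knockout livers (lowest, median and highest), against 5.41, 6.12 and 7.55 in control livers. The groups overlapped only because knockout 8 (6.68) lay below control 3 (7.55), and the other 7 knockouts lay above every control liver. The change was 1.73 ± 0.27 (SE), or 3.32-fold with a 95% confidence interval of 2.25 to 4.89 (limma adjusted p = 0.000151). It was 1.91 without knockout 8 and 1.92 without control 3. The SD over livers was 0.57 in knockouts and 0.69 in controls, so control livers were spread as widely as knockout livers.

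Cyp2b13 rose as well, on a dim probe set. It stood at 2.98, 4.45 and 5.35 in knockout livers, against 2.74, 2.96 and 3.50 in control livers. Knockout 3 (3.46) and knockout 7 (2.98) lay within the control range, and 6 knockouts lay above it. The change was 1.28 ± 0.27 (SE), or 2.42-fold with a 95% confidence interval of 1.63 to 3.59 (limma adjusted p = 0.0035). The SD was 0.87 in knockout livers and 0.25 in control livers. An intensity of 16 added before the log2 reduced the change to 0.61 with the call kept (limma adjusted p = 0.0155), since both groups are close to that value in intensity. Control livers averaged 3.00, below the 3.03 to 3.63 of Xist in the same livers, and whether Cyp2b13 was above background there was not measured.

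**Figure D1:**
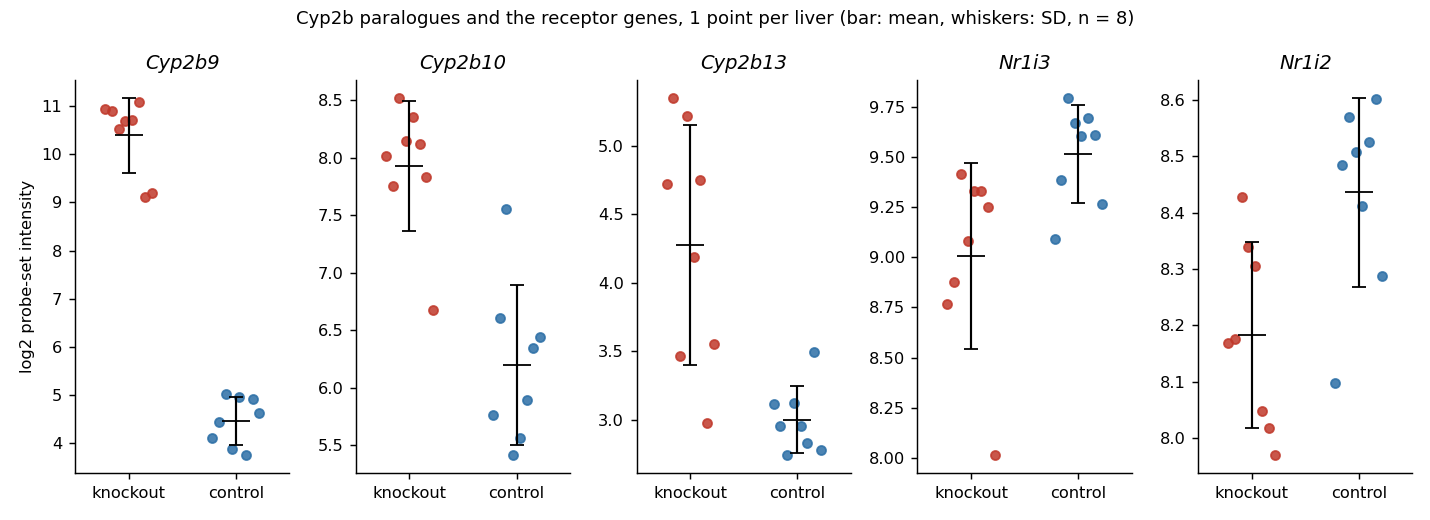
Log2 probe-set intensity of the 5 measured genes in each liver, with knockout livers at the left and control livers at the right of each panel; points are single livers, the bar is the mean and the whiskers the SD (n = 8 each), and each panel has its own axis. Cyp2b9 separates completely, with knockout livers at 9.11 or more and control livers at 5.01 or less, while the other 4 genes overlap.

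All 3 paralogues were thus called higher, where 5.49% of all genes were. The paralogues are similar in sequence, the sequences of the probes were not used here, and how far a probe set reads a paralogue's transcript was not tested. In knockout 7, the lowest knockout for both genes, Cyp2b9 stood at 9.11, above every control liver, and Cyp2b13 at 2.98, within the control range. Over the knockout livers Cyp2b9 and Cyp2b13 had r = 0.79, and over the control livers 0.04.

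The 3 genes did not change by the same amount. The difference between 2 probe sets within an array was compared between genotypes for the 3 pairs, by a 2-sided exact permutation test over 12870 assignments with adjustment over the pairs. Cyp2b9 minus Cyp2b10 was 2.47 ± 0.60 in knockout livers and -1.74 ± 0.59 in control livers (SD, n = 8 each). Cyp2b9 had therefore changed by 4.21 ± 0.30 (SE) more than Cyp2b10 on the log2 scale (exact permutation p = 0.000155, adjusted 0.000233). Against Cyp2b13, whose promoter window is nearly the same, Cyp2b9 had changed by 4.67 ± 0.27 (SE) more on the log2 scale (exact permutation p = 0.000155, adjusted 0.000233). With 16 added before the log2 these differences were 3.63 and 4.54, and no ratio of folds is given because the control levels of Cyp2b9 and Cyp2b13 are dim. Cyp2b13 was dim in both genotypes, with geometric mean intensities of 19.4 in knockout livers and 8.01 in control livers. How far this held down its change was not tested. Both p-values are the smallest that this number of assignments allows, and for both pairs no knockout liver overlapped a control liver.

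Between Cyp2b10 and Cyp2b13 no unequal change was shown. Their difference was 3.65 ± 0.95 in knockout livers and 3.20 ± 0.81 in control livers (SD, n = 8 each). The changes differed by 0.45 ± 0.44 (SE), with an exact permutation p of 0.316. This result depended on the scale, because 16 added before the log2 gave a difference of 0.91 (exact permutation test, adjusted p = 0.0135).

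**Figure D2:**
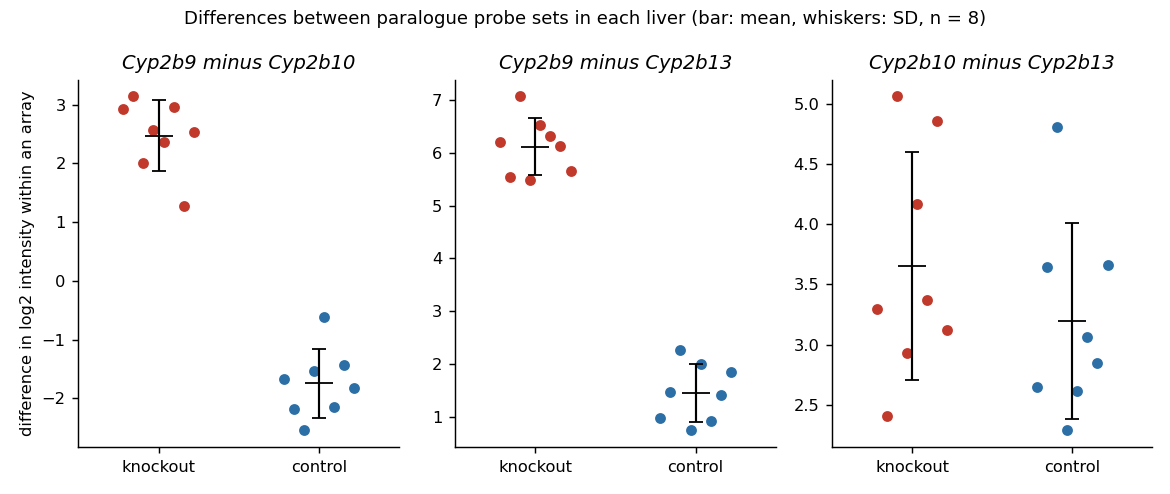
Difference in log2 intensity between 2 paralogue probe sets within each array, knockout livers at the left and control livers at the right; points are single livers, the bar is the mean and the whiskers the SD (n = 8 each). The 2 differences that involve Cyp2b9 separate the genotypes, at 1.28 or more against -0.62 or less for Cyp2b10 and 5.49 or more against 2.27 or less for Cyp2b13, while Cyp2b10 minus Cyp2b13 overlaps.

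The receptor genes were lower in knockout livers on average, and neither passed the test. Nr1i3 stood at 8.01, 9.17 and 9.41 in knockout livers, against 9.09, 9.61 and 9.80 in control livers. Of the knockouts 4 lay below the lowest control and 4 within the control range. The change was -0.51 ± 0.16 (SE), or 70.3% of the control level, with a 95% confidence interval of -0.84 to -0.17 and a limma adjusted p of 0.0556. Over the alternatives tried the adjusted p ranged from 0.0047 to 0.167, and 10 of 27 passed. Among these were fits without control 1, knockout 3, 5 or 6 (changes of -0.57 to -0.55) and without knockout 8, where the change shrank to -0.37 (limma adjusted p = 0.0498).

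Nr1i2 stood at 7.97, 8.17 and 8.43 in knockout livers, against 8.10, 8.50 and 8.60 in control livers. Of the knockouts 3 lay below the lowest control, which was control 1 (8.10), and 5 lay within the control range. The change was -0.25 ± 0.08 (SE), or 83.9% of the control level, with a 95% confidence interval of -0.43 to -0.08 and a limma adjusted p of 0.0628. Of 27 alternatives 5 passed, over a range of adjusted p from 0.00541 to 0.216. Control 1 and knockout 3 were the single livers whose removal gave a call (limma adjusted p = 0.0132 and 0.0297).

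The same livers were not extreme for every member. Knockout 8 was the lowest knockout for Cyp2b10, Nr1i3 and Nr1i2 and the second lowest for Cyp2b9. Knockout 7 was the lowest for Cyp2b9 and Cyp2b13, with Cyp2b10 at 7.84 and Nr1i3 at 9.25 among the other knockouts. Knockout 3 had the highest Cyp2b10 (8.52), Nr1i3 (9.41) and Nr1i2 (8.43) and the second lowest Cyp2b13 (3.46).

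**Figure D3:**
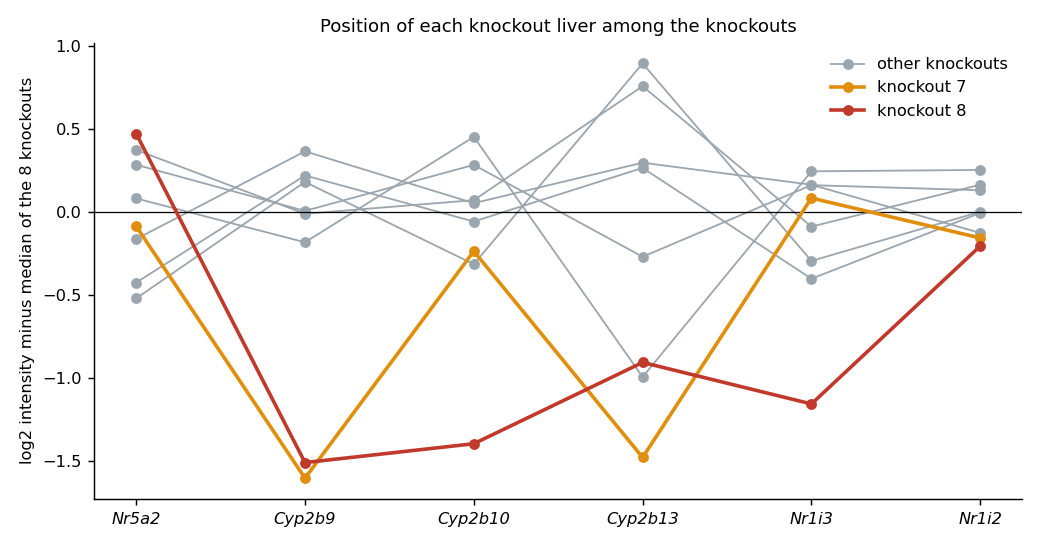
Log2 intensity of Nr5a2 and the 5 measured genes in each of the 8 knockout livers, minus the median of the knockouts for that gene; each line is 1 liver, with knockout 7 and knockout 8 coloured. Both are low for Cyp2b9, only knockout 8 is the lowest for Cyp2b10 and Nr1i3, and knockout 8 has the highest Nr5a2.

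Relations between members were examined within each genotype, over the 15 pairs of Nr5a2 and the 5 genes, Nr5a2 having been added after its values were seen. Of these 30 relations 6 had an unadjusted exact permutation p under 0.05 for Pearson's r, and 0 passed after adjustment (lowest exact permutation p adjusted 0.0727). For Spearman's rho 3 had an unadjusted p under 0.05 and the lowest adjusted p was 0.279 (exact permutation). Cyp2b10 and Nr1i3 had the highest r, 0.92 in the 8 knockout livers (rho 0.79, exact permutation p = 0.00739 and 0.0279), and 0.20 in the control livers. Without knockouts 3 and 8, the livers farthest from the median of Cyp2b10, r was 0.50, so the relation rests on them. Cyp2b10 and Nr1i2 had r = 0.75 in knockout livers (rho 0.81, exact permutation p = 0.0145 and 0.0218). It was 0.56 without knockouts 3 and 8, and 0.33 in control livers. Cyp2b9 and Cyp2b13 had r = 0.79 in knockout livers (rho 0.71, exact permutation p = 0.0132 and 0.0576), or 0.60 without knockouts 7 and 8, and 0.04 in control livers. Nr1i3 and Nr1i2 had r = 0.89 in control livers (rho 0.83, exact permutation p = 0.00494 and 0.0154), or 0.39 without controls 1 and 8. In control livers Nr5a2 had r = 0.85 with Nr1i3 and 0.87 with Nr1i2 (exact permutation p = 0.0123 and 0.011). Without controls 1 and 8 these were 0.19 and 0.08.

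The genes whose values followed each member most closely were found by Pearson's r of the deviations from the genotype mean over 16 livers, among 8263 other named genes with a mean of 6 or more. They were picked as the highest, so no test applies. For Cyp2b10 they were the sulfotransferase gene Sult1d1 (0.86), the lipid phosphatase gene Plpp3 (0.81) and the peroxisomal thiolase Acaa1b (0.78). Sult1d1 followed Cyp2b10 within knockout livers (0.96) and within control livers (0.83). For Cyp2b9 they were the ephrin receptor Epha1 (0.85), Mapkap1 (0.83) and Nudt4 (0.82), and for Cyp2b13 Dusp16 (0.80), Elapor1 (0.79) and Ndfip2 (0.78). With Cyp2b13, Elapor1 had r = 0.89 within knockout livers but -0.40 within control livers. Ndfip2 had 0.88 and 0.35, and Dusp16 0.84 and 0.72, in the same order. For Nr1i3 they were the RNA polymerase subunit Polr2f (0.92), Actr6 (0.91) and the P450 gene Cyp2c54 (0.91), and for Nr1i2 Fgd6 (0.91), Phlpp1 (0.90) and Oser1 (0.89). Knockout 8 was low and apart from the other knockouts in Sult1d1, Plpp3, Acaa1b, Polr2f, Actr6 and Cyp2c54, as it was in Cyp2b10 and Nr1i3.

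The increases were not called in every Cyp2b gene or in the other genes measured between them. Cyp2b19, a P450 of skin in the mouse, averaged 4.24 ± 0.17 in knockout livers and 4.11 ± 0.17 in control livers, and Cyp2b23 averaged 5.06 ± 0.26 in knockout livers and 4.96 ± 0.17 in control livers (SD, n = 8 each). Neither passed in limma, with changes of 0.13 ± 0.08 and 0.10 ± 0.10 (SE) and 95% confidence intervals of -0.05 to 0.30 and -0.12 to 0.31. From Cyp2s1 to Cyp2t4 on chromosome 7, 12 P450 genes were measured, of which 7 were higher and 0 lower, beside the 5.49% of all genes that were higher. They were the 3 members and Cyp2a5, Cyp2a12, Cyp2a22 and Cyp2f2. The 4 other genes measured in that stretch had changes of -0.08 to 0.03, with 0 called by limma and 0 at an unadjusted p under 0.05. These 4 were dim, with genotype means of 2.46 to 3.58. Whether they were above background was not measured, so their small changes do not show that expressed neighbours stayed level. Of 11 genes beyond its ends 0 were called by limma and 1 had an unadjusted p under 0.05.

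Among the neighbours Cyp2a22 stood at 7.16 to 9.79 in knockout livers and 4.65 to 5.82 in control livers, with no overlap. Cyp2a5, the mouse coumarin 7-hydroxylase, stood at 10.97 to 11.39 in knockout livers and 10.43 to 10.78 in control livers, a change of 0.56 ± 0.07 (SE, limma adjusted p = 1.94e-05). Cyp2f2, an airway and periportal P450, changed by 0.28 ± 0.05 (SE), also without overlap. Cyp2a12 changed by 0.34 ± 0.09 (SE, limma adjusted p = 0.0181), with knockout 8 below every control liver. Its call was lost with arrays centred on their medians (adjusted p = 0.064) and without the 3 arrays that held adipocyte markers (adjusted p = 0.112).

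**Figure D4:**
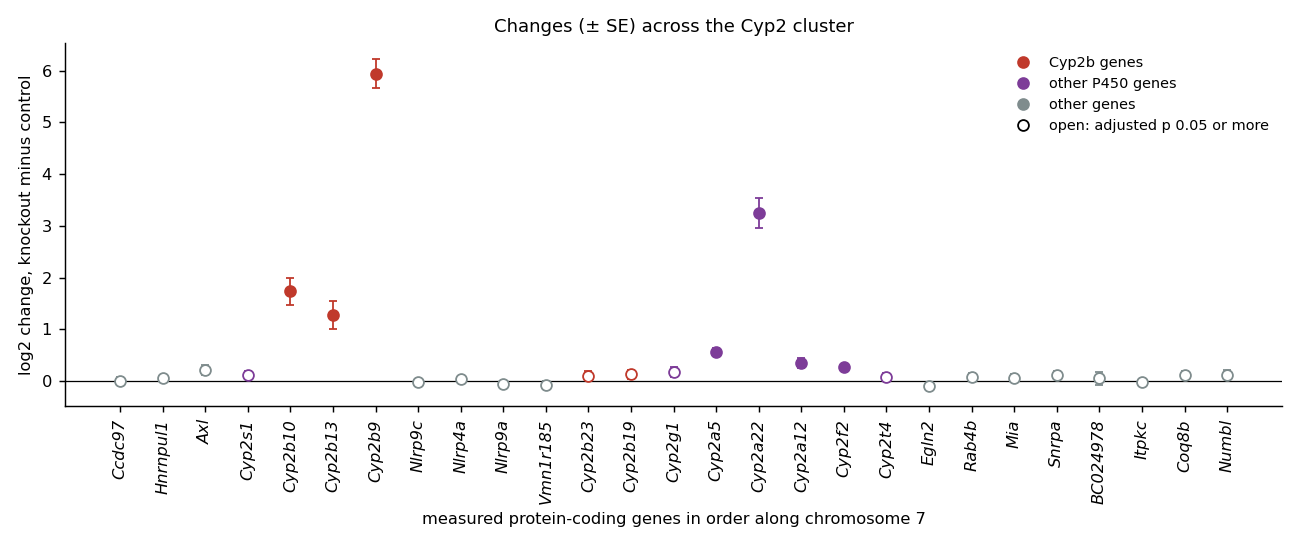
Log2 change, knockout minus control, of measured protein-coding genes in their order along chromosome 7 around the Cyp2 cluster; points are limma estimates, bars their SE, filled points have an adjusted p under 0.05 and colours mark Cyp2b genes, other P450 genes and other genes. The called genes are all P450 genes and all higher, from 0.28 for Cyp2f2 to 5.94 for Cyp2b9.

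Other genes reported to respond to CAR or PXR moved in both directions. Of 48 named, 39 were measured, and 11 were higher and 7 lower, or 46.2% called beside the 8.7% of all genes. Their median change was 0.16, against 0.0019 for all genes. The higher targets include a P450 gene of the chromosome 7 stretch above, so the counts are not fully separate. Cyp2c55, a P450 of the Cyp2c family, stood at 6.95 to 8.74 in knockout livers and 4.79 to 5.58 in control livers. The organic anion carrier Slco1a4 stood at 7.84 to 8.45 in knockout livers and 5.58 to 7.09 in control livers. The aldehyde dehydrogenase Aldh1a7 rose by 0.78 ± 0.08 (SE, limma adjusted p = 4.23e-07), with no overlap. Papss2, which makes the sulfate donor of sulfotransferases, was lower in all 8 knockout livers, at 9.02 to 9.59 against 9.95 to 10.75 in control livers, or 49.9% of the control level (limma adjusted p = 1.01e-06). The PXR target Cyp3a11, named after its values were seen, was at 11.37 ± 0.28 in knockout livers and 11.06 ± 0.16 in control livers (SD, n = 8 each) and did not pass (0.31 ± 0.10 SE, limma adjusted p = 0.0744).

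The number of higher targets depended on the scale and on single livers. It was 6 with arrays centred on their medians, 7 without the 3 arrays that held adipocyte markers, 6 without knockout 4, and 7 without knockout 5, control 4 or control 5. In the other direction it was 13 with array weights, with quantile normalization or without knockout 3, and 14 without knockout 8. The number of lower targets was 6 to 8 in all of the alternatives.

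Among genes that pair with, hold back or modify CAR and PXR, 3 of 24 were lower and 1 higher, or 16.7% called beside the 8.7% of all genes. Nr0b2, which encodes the repressor SHP, was at 3.97 to 5.36 in knockout livers and 7.87 to 9.26 in control livers. Cebpa, a hepatocyte transcription factor, was at 7.87 to 8.69 in knockout livers and 8.95 to 9.22 in control livers. Ahr, the receptor of dioxin-like compounds, rose by 0.43 ± 0.09 (SE, limma adjusted p = 0.00296). Foxa2 changed by -0.33 ± 0.09 (SE, limma adjusted p = 0.0278), a call lost without knockout 2, 3 or 5, without control 4, 5 or 7, and without the arrays with adipocyte markers (adjusted p up to 0.129). Rxra, the partner of both receptors and named after its values were seen, had a change of -0.14 ± 0.06 (SE) and did not pass (limma adjusted p = 0.151).

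Among genes that serve P450 enzymes, the share called was 12.5% for electron transfer and 10% for haem, near the 8.7% of all genes. An unadjusted limma p under 0.05 was found in 3 of 8 and 4 of 10, a threshold to which the 8.7% does not apply. Of 8 measured genes of electron transfer other than Por, 1 was lower, the mitochondrial ferredoxin Fdx1 (-0.39 ± 0.10 SE, limma adjusted p = 0.0135), and its call was lost without the arrays with adipocyte markers (adjusted p = 0.0517). Of 10 measured genes of haem synthesis and breakdown 1 was lower, the biliverdin reductase Blvrb (-0.35 ± 0.10 SE, limma adjusted p = 0.0357). That call was lost in 8 of the 16 fits that left out a single liver, namely knockouts 1 to 4 and controls 4, 5, 6 and 8 (adjusted p up to 0.0811), and without the arrays with adipocyte markers (0.206). Of 3 erythroid markers, cells that make much haem, 1 was lower (Alas2), with summed intensities of 525 to 749 in knockout livers and 707 to 861 in control livers, and its part in the result was not tested.

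Sex-biased liver genes were examined because Cyp2b9 and Cyp2b13 are themselves female-biased. Xist was at 3.43 or less in knockout livers and 3.63 or less in control livers, and the Y-linked Uty was at 6.62 or more in knockout livers and 6.70 or more in control livers. The labels do not give the sex of the mice, and these values are those of male livers in both genotypes. Of 16 other female-biased genes 6 were higher and 0 lower, or 37.5% called beside the 8.7% of all genes. The anion carrier Slc22a26 was at 4.95 to 7.51 in knockout livers and 4.16 to 4.67 in control livers, and the steroid hydroxylase Cyp17a1 at 7.25 to 8.96 in knockout livers and 6.16 to 7.88 in control livers. Nipal1 rose by 0.79 ± 0.16 (SE, limma adjusted p = 0.00264). Lcn2, also an acute phase gene, was at 8.07 to 10.39 in knockout livers and 6.28 to 7.59 in control livers. The female-biased Cyp3a16, Sult3a1 and A1bg, named after their values were seen, did not pass in limma. They were dim, with genotype means of 2.04 to 3.53.

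Of 18 male-biased genes 7 were lower and 1 higher, or 44.4% called beside the 8.7% of all genes. Susd4 was at 5.52 to 6.61 in knockout livers and 7.42 to 8.75 in control livers. Elovl3, a fatty acid elongase, was at 10.81 to 11.48 in knockout livers and 11.77 to 12.17 in control livers. Slco1a1, an organic anion carrier, was at 9.85 to 10.41 in knockout livers and 10.62 to 10.95 in control livers, and the steroid enzyme Hsd3b5 at 7.48 to 10.28 in knockout livers and 10.13 to 10.98 in control livers. The male-biased Cyp4a12a, Cyp4a12b and Cyp2d9, named after their values were seen, did not pass in limma. Their changes were 0.12, 0.03 and -0.10. Of 13 regulators of sex bias 1 was lower, or 7.69% called, near the 8.7% of all genes. It was the liver factor Onecut1 (-1.15 ± 0.32 SE, limma adjusted p = 0.0278). Its call was lost without knockout 1, 2 or 5, without control 3, 4, 5 or 7, with an intensity trend and robust variances, and without the arrays with adipocyte markers (adjusted p up to 0.130).

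**Figure D5:**
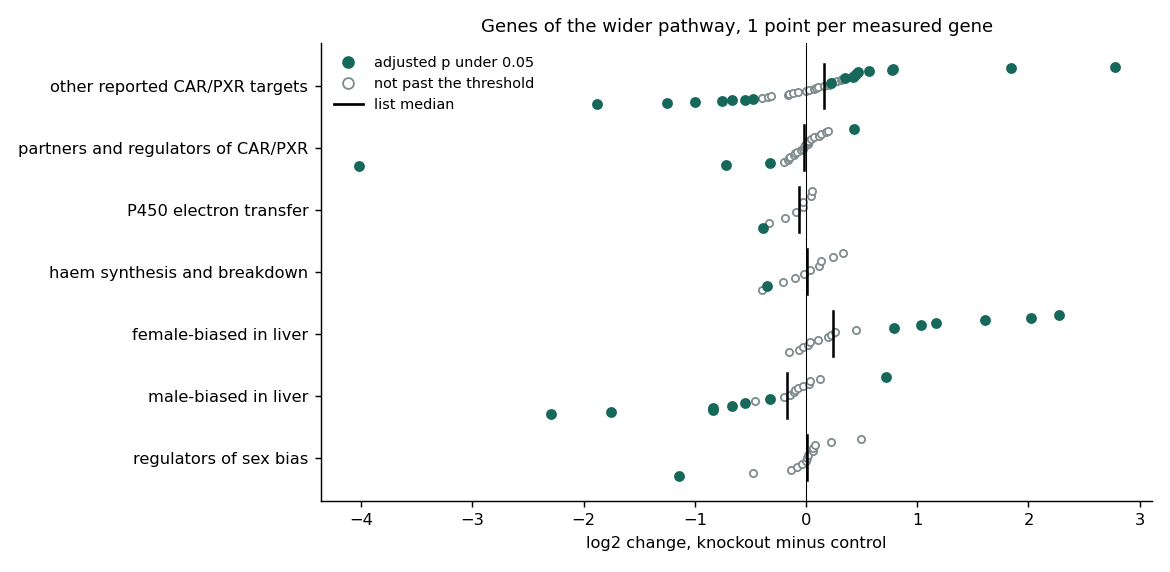
Log2 change, knockout minus control, of the measured genes in 7 lists around CAR, PXR and the Cyp2b genes, which are themselves left out; each point is a gene, filled where the limma adjusted p is under 0.05, and the bar is the median of the list. Reported CAR and PXR targets spread to both sides (11 higher and 7 lower of 39), female-biased genes lie mostly to the right (6 higher of 16) and male-biased genes mostly to the left (7 lower of 18).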

How the data were processed

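Total liver RNA (100 ng) was amplified, labelled and hybridised to Affymetrix whole-transcript arrays, per the labels' protocols. The deposited linear intensities, 1 value per probe set and array, were the authors' own output from Expression Console (Affymetrix), a step named by the submitters' processing notes without its summary method. Over 35556 probe sets they had array medians of 38.9 to 43.5, and log2 was taken with no further scaling. Probe sets naming 1 gene (21456) were kept. Where a gene had several (1343 genes), the one with the highest mean was used, leaving 19237 genes. Gene names and promoters came from RefSeq (GRCm38.p6).

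Genotypes were compared with limma 3.58.1 (lmFit and eBayes, 8 against 8 livers, no covariate) in R 4.3.3, with Benjamini-Hochberg adjustment over all genes and a threshold of 0.05. Paralogue pairs and relations were tested by exact permutation. Scripts were tested on simulated data. Named genes were the members, Nr5a2, up to 4 changed genes per list by p and the 3 genes most like each member. The members and lists were chosen with earlier results of these data known. Alternatives changed scaling, filters, variances, weights, probe-set choice and arrays. The number of arrays limits the precision.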

Additional observations from a re-analysis of the deposited data

Results flagged for a closer look

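Within each genotype of 8 livers, a value was singled out where its gap to the nearest other liver, divided by the range, exceeded Dixon's critical value at 95%. Chance gives about 1 in 20 groups, and 14 of 92 groups over 46 genes were found. Knockout 8 accounted for 10 of them, all low. Cyp2b10 was at 6.68 in knockout 8, where the nearest knockout was at 7.76, and Nr1i3 was at 8.01, where the nearest was at 8.77. The neighbour Cyp2a12 was at 11.04 in knockout 8 (nearest 11.68), and the sulfate donor gene Papss2 at 9.02 (nearest 9.35).

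Of the genes most like Cyp2b10, knockout 8 had Sult1d1 at 8.85 (nearest 9.51), Plpp3 at 9.28 (nearest 9.63) and Acaa1b at 7.76 (nearest 8.79). Of those most like Nr1i3, it had Polr2f at 8.15 (nearest 8.92), Actr6 at 5.46 (nearest 6.54) and Cyp2c54 at 9.92 (nearest 10.99). These 6 genes were picked by their likeness to a member that is itself low in knockout 8. Control 1 was low for Polr2f at 8.77 (nearest 9.13) and for Fgd6 at 6.81 (nearest 7.11). Cyp2b19 was high in knockout 5 at 4.63 (nearest 4.30), and Nudt4 was high in control 3 at 9.83 (nearest 9.76).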

How the results depend on the processing

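Cyp2b9 (5.15 to 6.36), Cyp2b10 (1.52 to 1.95) and Cyp2b13 (0.61 to 1.61) kept their direction and call under 27, 27 and 25 alternatives. Cyp2b13 has no value under the 2 intensity filters. Leaving out 1 liver gave 5.84 to 6.13, 1.62 to 1.92 and 1.12 to 1.46. The fit without knockouts 7 and 8 was chosen after seeing the data, as were the list counts under each alternative. Nr1i3 became a limma call among genes over the 25th intensity percentile (-0.51, adjusted p = 0.0476), over the 50th (-0.51, 0.041), with array weights (-0.43, 0.0229), with quantile normalization (-0.50, 0.0403) and in 5 of 16 fits without 1 liver (all 16 lay between -0.57 and -0.37). Nr1i2 became a call over the 50th percentile (-0.25, 0.0387), with array weights (-0.30, 0.00541), with quantile normalization (-0.26, 0.0109) and without control 1 (-0.30) or knockout 3 (-0.29), while all 16 fits without 1 liver lay between -0.30 and -0.22. Cyp2b10 minus Cyp2b13 passed with 16 added (0.91), and was 0.25 to 0.68 without 1 liver.

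The deviations of same-numbered livers correlated at -0.26 to 0.23, so the numbers were not taken as pairs. With the number as a replicate block, 1524 genes were called in place of 1673, Nr1i3 passed (-0.51, limma adjusted p = 0.0047), and Nr1i2 did not (-0.25, 0.062). The gene count was 1129 to 2094 over all alternatives and 1424 to 1821 without 1 liver, and 63.2% of calls were higher, against 53.4% with arrays centred on their medians. Higher CAR and PXR targets numbered 6 when centred, 7 without the arrays with adipocyte markers and 6 to 14 without 1 liver, in place of 11. Lower CAR and PXR partners numbered 6 with array weights, in place of 3.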
